A study of Mus musculus with 6 samples.

Results

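The genes of the synaptonemal complex, of meiotic cohesin and of meiotic recombination are the subject here, followed from pachytene and diplotene (P/D) spermatocytes to round spermatids (RS). A list of 40 genes was matched by symbol, ignoring case, to the annotated contigs of the data, where a contig is 1 transcript of the reference, and 20 of the 40 genes had a contig. These 20 genes had 33 of the 12114 contigs. The other 20 listed genes (Majin, Hormad2, Shoc1, Terb2, Rad21l, Rnf212, Tex12, Tex11, Msh5, Spata22, Brca1, Mlh3, Msh4, Rad51ap2, Sun1, Trip13, Dmc1, Meiob, Mcmdc2 and Ccnb1ip1) were not analysed here.

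Native polyadenylated RNA was read on nanopores by direct RNA sequencing, so that each read is 1 molecule with its poly(A) tail. Both cell types came from the testis of adult C57BL/6J/B6 male mice with no further allele or treatment, and the 6 samples, 3 per cell type, were each mRNA pooled from 3 mice. The study took the germ cell types from the same animals, and its sources do not say whether pools of the same number share their mice. The cells were sorted live by Hoechst fluorescence and light scatter. Microscopy in the study found other cells in both gates, at a much larger share in the P/D gate. The P/D extracts were barcoded into 1 library and the RS extracts into another, which means that the cell types cannot be told apart from the sequencing runs. The samples held 244004 to 305950 reads for P/D and 316653 to 474688 for RS, of which 646 to 896 and 634 to 1116 were on the 33 contigs. In bulk RNA of this kind, fewer cells of a type and less RNA per cell cannot be told apart. Each read was counted on a transcript, and where the isoforms of a gene are alike its reads may be spread over them.

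During meiotic prophase, each pair of sister chromatids is organised in loops along a protein axis built on cohesin, and the synaptonemal complex then zips the axes of homologous chromosomes together. Programmed DNA breaks are made and repaired on these axes, and some of the repair events become crossovers that hold the homologs together until the first division. The complex is complete in pachytene and comes apart in diplotene, and round spermatids, the haploid cells that follow, have finished both divisions. In male germ cells many mRNAs are stored rather than translated at once, and their poly(A) tail length is one of the features that change with storage and translation.

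Marker genes of germ cell stages and of other testis cells were read in the same samples. Markers of elongating and elongated spermatids (10 genes, all with reads) took 0.198% to 0.266% of the reads of P/D samples and 2.47% to 2.95% of those of RS samples, and markers of round spermatids (10 genes, all with reads) took 0.0652% to 0.0902% and 0.367% to 0.394%. Of the first list, the study places the transcription of protamines, transition proteins, Smcp and Odf1 in RS. Whether their reads in RS samples came from RS or from other cells was not tested. Markers of P/D spermatocytes outside the gene list (8 genes, all with reads) took 0.383% to 0.418% in P/D and 0.268% to 0.295% in RS, so they were still read in RS. Of their 15 transcripts tested, 6 were lower and 3 higher in RS, beside 30.6% and 32.7% of all transcripts tested. Pou5f2 and Piwil1 fell most. Those called higher were Ccna1 ENSMUST00000029368, Ccna1 ENSMUST00000198320 and Tbpl1 ENSMUST00000127698, while Ccna1 ENSMUST00000197238 was called lower. Of 8 spermatogonia markers, 2 had reads, 33 to 48 per P/D sample and 4 to 6 per RS sample. Of 8 markers of leptotene and zygotene spermatocytes, 3 had reads, 163 to 218 per P/D sample and 72 to 113 per RS sample. Sertoli cell markers had 0 to 3 reads and macrophage markers 0 to 2 reads in any sample, and markers of myoid and red blood cells had 0. Of 7 Leydig cell markers only Insl3 had reads, 3 to 7 per P/D sample and 1 to 5 per RS sample. These shares moved with cell type, as did the results below, and their part in the results was not tested.

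A poly(A) tail is added where the 3′ end of the mRNA is cut, usually a short way after a hexamer, AATAAA or less often ATTAAA. The last 30 annotated bases of 8 member transcripts are shown because tails are added after the final base of an mRNA and because their tails behaved differently between the cell types, as described below. The annotated end was taken as that final base, and the ends used in these cells were not mapped here. The sequences are from GENCODE vM21 on GRCm38, 5′ to 3′ on the strand of the transcript, with the hexamer in capitals.
Syce1 (chr7:140777229-140777258, minus strand): caagcaaAATAAAtgaaatttaagtctgca
Syce3 (chr15:89390174-89390203, minus strand): tacttgtttctcAATAAActtattttcacg
Stag3 (chr5:138312364-138312393, plus strand): ctttcAATAAAcatgttcagctatctcata
Psmc3ip (chr11:101091823-101091852, minus strand): ggtatttagaagataaattcaaatatgtaa
Sycp1 (chr3:102818499-102818528, minus strand): ttttctttattATTAAAatattttgaatgc
Sycp3 (chr10:88473206-88473235, plus strand): cgattgtgtcAATAAAgatgatttaaattt
Rec8 (chr14:55625366-55625395, plus strand): gttcATTAAAccatatcctgcctcactgga
Cntd1 (chr11:101288672-101288701, plus strand): tcatatttgaaAATAAAgtagcttttgtgg
Syce1, Syce3, Stag3, Psmc3ip and Sycp1 had longer tails in RS, and Sycp3, Rec8 and Cntd1 had no call. The annotated Psmc3ip end held neither hexamer in its last 50 bases, on the transcript strand, and its tail was among those called longer. Over the 24 member transcripts tested for tails, 13 held AATAAA, 3 held ATTAAA without it and 8 held neither. Among the 6901 tested transcripts with a sequence, AATAAA was in 63.2%, ATTAAA without it in 14.3% and neither in 22.5%. A cytoplasmic polyadenylation element spelled TTTTAT was in the last 100 bases of 0 of the 24 members and of 11.5% of those 6901 transcripts, on the same strand. These are matches of letters only.

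Of the 33 contigs, 20 from 14 genes had enough reads for a test of accumulation and 24 from 17 genes for a test of mean tail length. In accumulation, RS had less than P/D spermatocytes of 9 member transcripts and more of 4 (adjusted p below 0.05 by the quasi-likelihood test of edgeR, a model of counts; SE below stands for standard error). Among all 6005 transcripts tested, 30.6% were lower and 32.7% higher. Of the 13 members called, 6 passed the count filter only through the cell type in which they were high, Rec8 and Syce2 through RS and Hormad1, Cntd1, the second Sycp3 transcript and the Psmc3ip transcript with a retained intron through P/D, so the counts of calls are a description. The median log2 fold change of the members was -0.47, and that of all transcripts was -0.02. In mean tail length, 13 member transcripts were longer in RS and 0 shorter (limma, adjusted p below 0.05), which is a share near that of all 6990 transcripts tested, of which 54.2% were longer and 1.69% shorter. The median difference was 42.1 nt for the members and 37.4 nt for all transcripts. Of the 21 members with a mean in all 6 samples, 13 had every RS sample above every P/D sample and 1, Cntd1, every RS sample below, against 63.6% and 2.72% of 6464 transcripts. Pooled over all member reads, the median tail was 93.1, 94.0 and 90.1 nt in the P/D samples and 159, 156 and 163 nt in the RS samples. Over all reads of the samples it was 94.1, 92.3 and 91.2 nt in P/D and 158, 156 and 160 nt in RS. The calls of Sycp1, Cntd1, Smc1b, the leading Stag3 transcript and the Psmc3ip transcript with a retained intron in accumulation, described below, were lost with DESeq2.

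**Figure D1:**
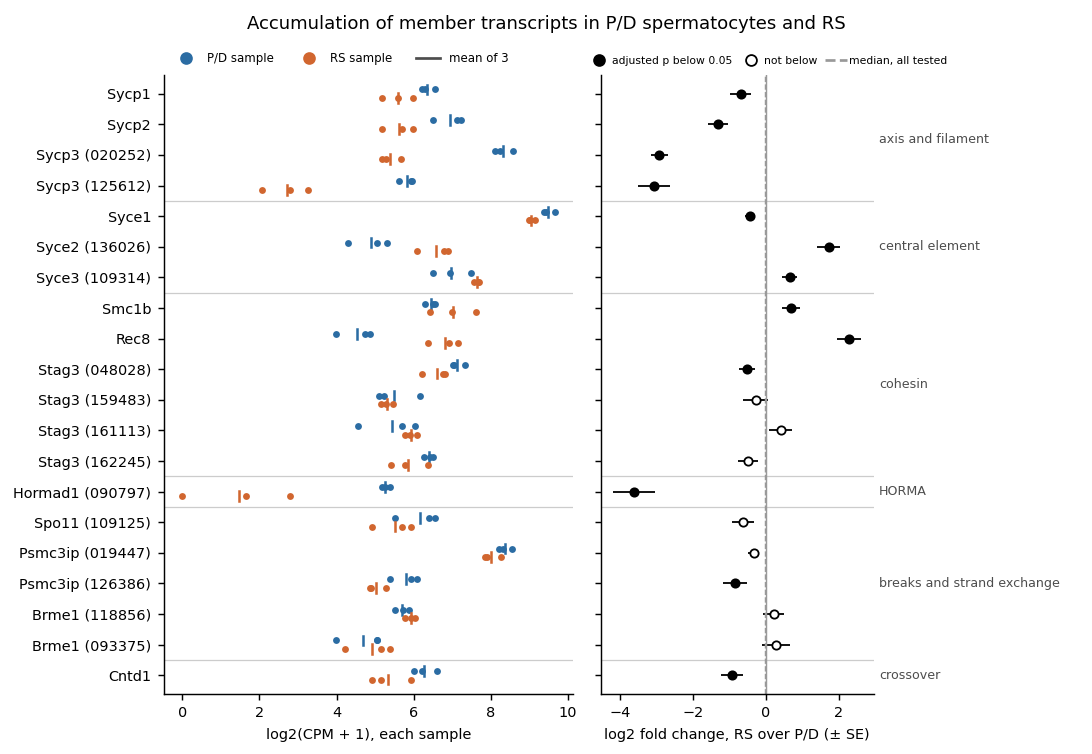
Left, log2(CPM + 1) of each of the 20 member transcripts tested for accumulation, with 1 dot per sample (blue P/D, orange RS) and a bar at the mean of the 3 values; right, the log2 fold change with its standard error, filled where the adjusted p is below 0.05. The Sycp3, Sycp2 and Hormad1 transcripts lie furthest to the left, at -3.62 to -1.32, and Rec8 furthest to the right, at 2.27.

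The axis and transverse filament genes come first. All 4 transcripts tested, from 3 genes, were called lower in RS, beside 30.6% of all transcripts tested. Sycp3, a lateral element protein that coats the chromosome axes and whose protein marked spermatocytes in the study's microscopy, had 276, 304 and 381 CPM (reads scaled to the library sizes that edgeR normalized, as parts per M reads) in P/D and 38.1, 49.7 and 35.3 in RS for its leading transcript, ENSMUST00000020252 (chr10:88459569-88473235, 9 exons). The groups were far apart, with means of 320 ± 54.3 CPM in P/D and 41.0 ± 7.63 CPM in RS (SD, n = 3 per cell type). The log2 fold change was -2.92 (SE 0.22, edgeR adjusted p = 1.36e-14). A second Sycp3 transcript, ENSMUST00000125612, fell alongside it, from 46 reads in the 3 P/D samples to 7 in the 3 RS samples (log2 fold change -3.07). It entered the test through its P/D reads alone. Sycp2, the partner of Sycp3 in the lateral element, had 89.1, 150 and 138 CPM in P/D and 50.8, 62.7 and 35.3 in RS. Its samples did not overlap, and the log2 fold change was -1.32 (SE 0.27, edgeR adjusted p = 3.77e-05). Sycp1, the transverse filament protein that spans the space between the axes, had 77.0, 73.5 and 93.3 CPM in P/D and 47.6, 62.7 and 35.3 in RS, again without overlap. Its log2 fold change was -0.70 (SE 0.29, edgeR adjusted p = 0.033). That call was lost without P/D replicate 3 (-0.61), RS replicate 1 (-0.64) or RS replicate 3 (-0.47).

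In tail length these 3 genes differed. The mean tail of Sycp1 was 147, 120 and 130 nt in P/D and 202, 204 and 205 nt in RS. The RS samples were close together and well above the P/D samples, with a difference of 71.7 nt (SE 8.17, limma adjusted p = 0.00077). For Sycp2 the means were 165, 155 and 162 nt in P/D and 173, 181 and 156 nt in RS, which overlapped, and the difference was 9.34 nt (SE 8.27, limma adjusted p = 0.379). Long single tails weighed on this mean: 15 of the 106 P/D reads and 3 of the 57 RS reads were of 300 nt or more, and with tails of 10 to 300 nt only the difference was 35.6 nt and was called (limma adjusted p = 0.0241, range over the alternatives 0.0241 to 0.740). The leading Sycp3 transcript had means of 143, 131 and 129 nt in P/D and 118, 109 and 169 nt in RS. RS replicate 3 was the highest sample and the other RS samples the lowest, on 12 to 23 reads each, and the difference was -2.56 nt (SE 16.3, limma adjusted p = 0.904). With tails of 10 to 300 nt only, it was -18.8 nt and was called shorter (limma adjusted p = 0.0389, range over the alternatives 0.0389 to 0.949). The second Sycp3 transcript had 1, 4 and 2 reads in RS and a difference of 17.4 nt that was not called, and without RS replicate 1 the difference was 58.1 nt and was called.

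**Figure D2:**
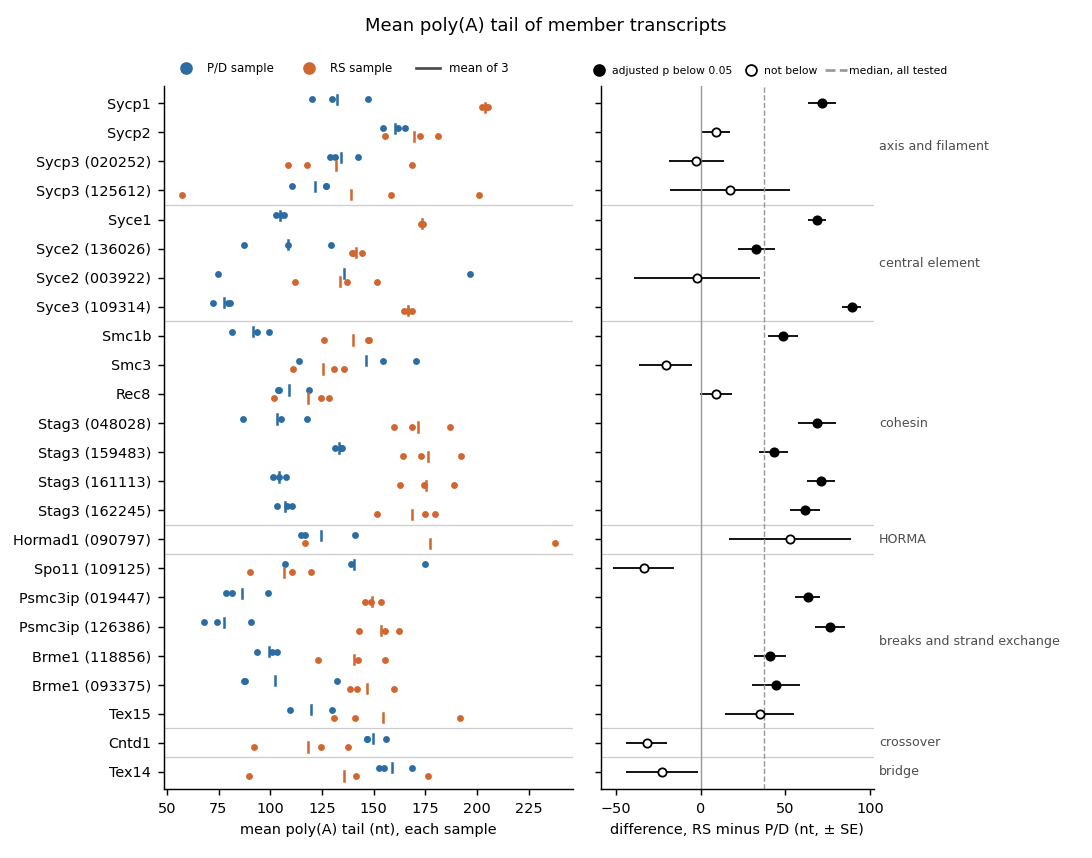
Left, the mean poly(A) tail in nt of each of the 24 member transcripts tested for tails, with 1 dot per sample (blue P/D, orange RS) and a bar at the mean; right, the difference RS minus P/D with its standard error, filled where the adjusted p is below 0.05, and a dashed line at 37.4 nt, the median of all transcripts tested. Syce1, Syce3, Stag3, Psmc3ip and Sycp1 lie right of that line, and Cntd1, Spo11, Tex14, Smc3, the leading Sycp3 transcript and a minor Syce2 transcript lie left of 0.

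The 3 central element genes with a contig all had a leading transcript with tails called longer in RS, beside 54.2% of all transcripts tested. In accumulation 1 was called lower and 2 were called higher, beside 30.6% and 32.7%. Syce1, which lies in the middle of the complex with the ends of the filament protein, had 673, 809 and 694 CPM in P/D and 505, 566 and 521 in RS for ENSMUST00000026553 (chr7:140777229-140787852, 13 exons). All RS samples were lower, by a log2 fold change of -0.45 (SE 0.12, edgeR adjusted p = 0.0013). With at least 10 counts in every sample required of a transcript, that change was -0.26 and was not called. Its tail means lay close together within each cell type, at 107, 103 and 105 nt in P/D and 173, 173 and 174 nt in RS, on 159 to 262 reads a sample. The difference was 68.6 nt (SE 5.14, limma adjusted p = 0.00049). Syce3, a small protein needed to start the central element, had 178, 89.5 and 123 CPM in P/D and 203, 207 and 188 in RS for ENSMUST00000109314. The RS samples were higher, by a log2 fold change of 0.65 (SE 0.21, edgeR adjusted p = 0.0063), and without P/D replicate 2 the change was 0.42 and was not called. Its mean tails were 80.6, 79.6 and 72.4 nt in P/D and 165, 169 and 167 nt in RS. This difference of 89.1 nt (SE 5.55, limma adjusted p = 0.00049) was the largest among the 24 member transcripts.

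Syce2, the partner of Tex12 in the central element, was higher in RS. Its leading transcript ENSMUST00000136026 (chr8:84872111-84888221) had 32.4, 38.4 and 18.7 CPM in P/D and 66.7, 110 and 118 in RS. The groups did not overlap, with a log2 fold change of 1.71 (SE 0.32, edgeR adjusted p = 1.46e-05). It had 8, 12 and 5 reads in P/D and passed the count filter only through RS, so it could not be tested with 10 counts required in every sample. The tail of this transcript was 129, 87.5 and 109 nt in P/D, on 5 to 12 reads, and 140, 144 and 140 nt in RS, on 21 to 51 reads. The difference of 32.9 nt (SE 11, limma adjusted p = 0.0442) was close to the threshold, and it was not called without P/D replicate 2 (22.4 nt), P/D replicate 3 (33.0 nt), RS replicate 1 (33.5 nt), RS replicate 2 (31.5 nt) or RS replicate 3 (33.7 nt). With the replicate number as a block it was not called either (limma adjusted p = 0.0712). A Syce2 isoform annotated for nonsense-mediated decay, ENSMUST00000003922, had 0, 2 and 1 reads in P/D and 6, 10 and 11 in RS. Set against library totals, that is a ratio of RS to P/D of 6.44, with an exact 95% interval of 1.98 to 33.2 that covers counting error only. Its tail difference, on the mean of P/D replicates 2 and 3, was -2.08 nt and was not called. The remaining contigs of Syce2 and Syce3, ENSMUST00000170296 and ENSMUST00000167959, had 0 to 9 reads a sample and were not tested.

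The cohesin genes split. Rec8, the meiotic kleisin that closes the cohesin ring until it is cleaved, had 28.4, 25.6 and 14.9 CPM in P/D and 121, 82.1 and 141 in RS (chr14:55618037-55625395, 20 exons). Every RS sample was well above every P/D sample, and the log2 fold change was 2.27 (SE 0.34, edgeR adjusted p = 1.82e-07). With 7, 8 and 4 reads in P/D it passed the count filter only through RS, and it could not be tested with 10 counts required in every sample. Its tail had no call. The means were 104, 119 and 104 nt in P/D, on 4 to 8 reads, and 124, 102 and 128 nt in RS, on 38 to 48 reads. They overlapped, and the difference was 9.18 nt (SE 9.29, limma adjusted p = 0.44). Smc3, the subunit that meiotic and mitotic cohesin share, had 3, 2 and 3 reads in P/D and 9, 19 and 10 in RS and was under the count filter. With no filter its log2 fold change was 1.71 and was called. The Smc3 tail difference of -20.6 nt was not called, and without P/D replicate 1 it was -36.7 nt and was called shorter.

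Smc1b, the meiotic SMC subunit, had 77.0, 92.7 and 89.5 CPM in P/D and 85.7, 194 and 127 in RS. The groups overlapped, RS replicate 2 being the highest, and the log2 fold change was 0.69 (SE 0.25, edgeR adjusted p = 0.0162). Without RS replicate 2 it was 0.34, and without P/D replicate 1 it was 0.57, and in both cases it was not called. Its tails were longer in RS in all samples, at 81.7, 99.4 and 93.5 nt against 147, 126 and 148 nt, a difference of 48.7 nt (SE 8.82, limma adjusted p = 0.0043).

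Stag3, the meiotic subunit that binds the kleisin, was read as 4 transcripts. The tails of all 4 were called longer in RS, beside 54.2% of all transcripts tested. The leading one, ENSMUST00000048028 (chr5:138280526-138312393, 34 exons), had 130, 160 and 131 CPM in P/D and 111, 108 and 73.6 in RS, a log2 fold change of -0.52 (SE 0.22, edgeR adjusted p = 0.0394). The call was lost without P/D replicate 2 (-0.40) or RS replicate 3 (-0.31). Its mean tail was 86.6, 118 and 105 nt in P/D and 160, 168 and 187 nt in RS, 68.6 nt longer (SE 11, limma adjusted p = 0.0026). The other coding transcript, ENSMUST00000162245, and the 2 annotated as retained introns, ENSMUST00000161113 and ENSMUST00000159483, were longer by 61.6, 71.1 and 43.1 nt, and none of these 3 was called in accumulation. Without RS replicate 3, ENSMUST00000162245 had a log2 fold change of -0.72 and was called lower. The 4 transcripts have the same annotated 3′ end, within 3 bases, so they are not independent readings. With the reads of a gene pooled, Stag3 tails were 63.4 nt longer in RS. Its accumulation summed per gene was not called, with a log2 fold change of -0.29 (edgeR adjusted p = 0.0891).

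Hormad1, an axis protein that recruits the recombination machinery and is removed as chromosomes synapse, was read as 3 transcripts, each with a lower CPM in every RS sample than in any P/D sample. Only ENSMUST00000090797, which is not the leading one, passed the filters. It had 10, 11 and 10 reads in P/D and 0, 1 and 2 in RS, with a log2 fold change of -3.62 (SE 0.57, edgeR adjusted p = 6.08e-07). Set against library totals, its level in P/D was 14.4 times that in RS, with an exact 95% interval of 4.50 to 73.8 for counting error. It passed through P/D, where it was high. The leading transcript, ENSMUST00000029754, had 8, 10 and 5 reads in P/D and 1, 5 and 6 in RS. With the 3 transcripts summed per gene, the log2 fold change was -2.16 and was called. The Hormad1 tail rested on 3 reads in RS and gave no call, with a difference of 52.9 nt (SE 36). Terb1, which tethers telomeres to the nuclear envelope, had 5 to 6 reads in P/D and 3 to 5 in RS and was tested for neither readout.

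Among the genes of break formation and strand exchange, 1 of 5 transcripts tested was called in accumulation, lower in RS, and 4 of 6 in tail length, longer in RS, beside 30.6% and 54.2% of all transcripts tested. Spo11, the topoisomerase-like enzyme that makes the breaks, had 44.6, 83.1 and 93.3 CPM in P/D and 50.8, 60.5 and 29.4 in RS for ENSMUST00000109125. The groups overlapped and the log2 fold change of -0.63 was not called (SE 0.31, edgeR adjusted p = 0.0738). Without P/D replicate 1 it was -0.92, and without RS replicate 2 -0.86, and it was called in both. With the replicate number as a block it was -0.64 and was called lower (edgeR adjusted p = 0.0498). The mean Spo11 tail was 107, 139 and 175 nt in P/D and 110, 90.2 and 120 nt in RS. The difference of -33.6 nt ran against most transcripts and was not called (SE 18.0, limma adjusted p = 0.163), but it was called without P/D replicate 1, at -50.1 nt. In P/D, tails of 210 nt or more made up 18.2%, 11.5% and 36% of the 11, 26 and 25 Spo11 reads. In RS they were 0 of the 54 reads. That difference was not called (limma adjusted p = 0.165). The other Spo11 contigs had 0 to 13 reads a sample.

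Psmc3ip, which acts with Mnd1 in strand exchange, was read as a coding transcript and one with a retained intron. The coding one, ENSMUST00000019447 (chr11:101091823-101095436, 8 exons), had 316, 377 and 295 CPM in P/D and 238, 307 and 230 in RS. They overlapped, and the log2 fold change of -0.34 was not called (SE 0.16, edgeR adjusted p = 0.0585), although it was called without P/D replicate 1 (-0.42), P/D replicate 3 (-0.44) or RS replicate 2 (-0.46). Blocking on replicate number also gave a call, at -0.35 (edgeR adjusted p = 0.0393). Its mean tail was 98.9, 81.4 and 78.4 nt in P/D and 146, 149 and 154 nt in RS, 63.2 nt longer with no overlap (SE 7.47, limma adjusted p = 0.00086). The retained-intron transcript ENSMUST00000126386, on 9 to 21 reads a sample, had tails longer by 76.1 nt and was lower by a log2 fold change of -0.85 (edgeR adjusted p = 0.0256). The latter call was lost without P/D replicate 2 (-0.67), P/D replicate 3 (-0.83), RS replicate 1 (-0.77) or RS replicate 2 (-0.70). With the reads summed per gene, Psmc3ip was called lower, by a log2 fold change of -0.39 (edgeR adjusted p = 0.0183). Mnd1 itself had 3 reads in all P/D samples and 2 in all RS samples.

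Brme1, a partner of the BRCA2 complex at breaks, did not differ by call in accumulation and had longer tails. Its leading transcript ENSMUST00000118856 had 44.6, 57.6 and 52.2 CPM in P/D and 54.0, 60.5 and 64.7 in RS (log2 fold change 0.21, edgeR adjusted p = 0.558). Its tails were 101, 93.7 and 103 nt in P/D and 156, 123 and 142 nt in RS, 41.2 nt longer (SE 9.43, limma adjusted p = 0.011). The second transcript, ENSMUST00000093375, differed by 44.3 nt, and its call was lost without P/D replicate 2 (36.9 nt), P/D replicate 3 (36.8 nt) or RS replicate 3 (46.6 nt). Tex15, needed for repair of meiotic breaks and for silencing of transposons in male germ cells, had 0, 4 and 2 reads in P/D and 11, 23 and 9 in RS. It was under the count filter, and with no filter its log2 fold change of 2.29 was called. Its tail difference of 34.8 nt, from P/D replicates 2 and 3 on 4 and 2 reads, was not called. Brca2, which acts in the repair of meiotic breaks, had 4 to 5 reads in P/D and 2 to 6 in RS and was tested for neither.

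Cntd1, which matures recombination sites into crossovers, was the only crossover gene of the list with a contig, and it went down in RS. It had 72.9, 63.9 and 97 CPM in P/D and 60.3, 34.6 and 29.4 in RS (chr11:101279096-101288701, 7 exons). The groups did not overlap, with a log2 fold change of -0.93 (SE 0.31, edgeR adjusted p = 0.0088), and the call was lost without P/D replicate 3 (-0.77), RS replicate 2 (-0.75) or RS replicate 3 (-0.71). Its mean tail was 147, 156 and 147 nt in P/D and 125, 92.1 and 138 nt in RS. Every RS sample was below every P/D sample, and the difference of -31.8 nt was not called (SE 12.3, limma adjusted p = 0.0693). It was called shorter without RS replicate 3, at -41.6 nt, with 10 reads required in both cell types (limma adjusted p = 0.0352) and with samples weighted by the square root of their reads, at -32.9 nt (limma adjusted p = 0.0321). Tex14, a protein of the bridges that join germ cells of a clone, had 17, 5 and 8 reads in P/D and 4, 17 and 10 in RS and was under the count filter. Its mean tails were 153, 168 and 155 nt in P/D and 89.9, 141 and 176 nt in RS, and they overlapped (difference -22.8 nt, limma adjusted p = 0.404).

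The shape of the tail distributions was examined by class, with short tails of 30 to 120 nt and long tails of 120 to 210 nt, lower bound included. Over all member reads, long tails were 26.6%, 31.0% and 28.4% of the reads in P/D and 67.7%, 62.7% and 65.9% in RS. By transcript, 9 members had a higher share of long tails in RS and 0 a lower share (limma on the percentages, adjusted p below 0.05), against 53.0% and 2.37% of the 6990 transcripts. The 9 were the leading transcripts of Syce1, Syce3, Smc1b, Psmc3ip and Stag3 and the other Stag3 and Psmc3ip transcripts tested. For Syce1 the share went from 25.3%, 28.1% and 27.4% to 83.6%, 87% and 84.2%. For Syce3 it went from 18.2%, 25% and 21.2% to 85.9%, 80.2% and 84.4%. In both genes few short tails were left in RS.

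**Figure D3:**
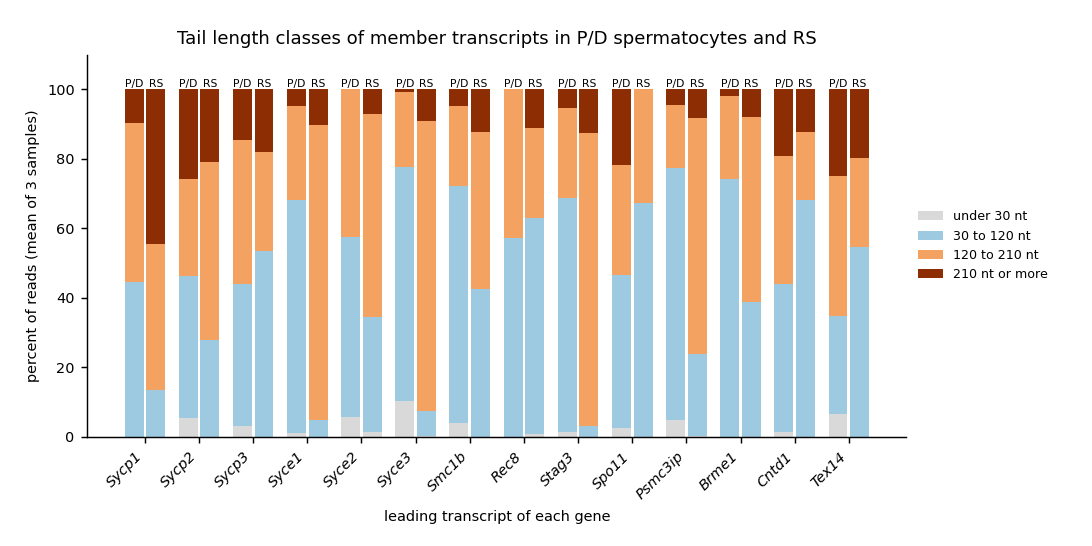
Percent of reads in 4 tail length classes for the leading transcript of 14 member genes, each bar the mean of the 3 samples of a cell type (left P/D, right RS). The class of 120 to 210 nt (light orange) fills most of the RS bars of Syce1, Syce3, Stag3 and Psmc3ip, and the class of 210 nt or more (dark) takes 44.4% of the RS bar of Sycp1.

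Sycp1 had another pattern. Its share of 120 to 210 nt tails was 36.8%, 52.2% and 48.0% in P/D and 40%, 44.8% and 41.7% in RS, which overlapped, although its mean tail was 71.7 nt longer. Tails of 210 nt or more made up 21.1%, 0% and 8.0% of its P/D reads and 46.7%, 44.8% and 41.7% of its RS reads, on 12 to 29 reads a sample. The RS samples were all above the P/D samples, and the difference of 34.7 percentage points was not called over all transcripts (limma adjusted p = 0.0794). This class was chosen after the values of Sycp1 were seen. In it 0 of the 24 member transcripts were called higher or lower, against 0.401% and 0.0858% of all 6990 transcripts. The median Sycp1 read had a tail of 134 nt in P/D and 191 nt in RS.

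The single reads show the same differences between genes. The ranges from the lower to the upper quartile of the reads of a cell type were 62.1 to 136 nt for Syce1 in P/D and 155 to 190 nt in RS, so that the RS reads were both longer and closer together. Stag3 went from 55.3 to 141 nt in P/D to 145 to 191 nt in RS. The Rec8 quartiles were close, at 77.7 and 140 nt in P/D, on 19 reads, and 75.2 and 138 nt in RS, on 124 reads. Its longest tails differed more. Tails of 210 nt or more made up 0%, 0% and 0% of the Rec8 reads in P/D and 15.8%, 5.26% and 12.5% in RS. That difference was not called (limma adjusted p = 0.151). With 4 to 8 reads in each P/D sample, the lack of a call does not show that Rec8 tails stayed the same. For Sycp3 the median read had 129 nt in P/D and 87.1 nt in RS, on 265 and 47 reads, and for Cntd1 145 nt and 92.0 nt, on 64 and 45 reads. These quantiles pool the reads of 3 samples and are given without a test.

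**Figure D4:**
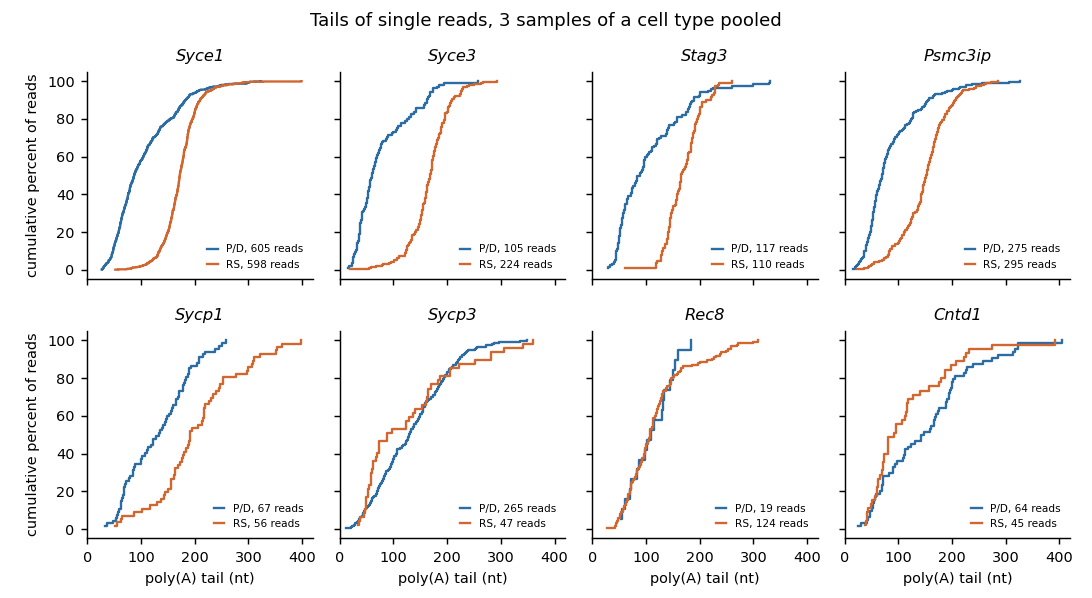
Cumulative percent of reads (vertical) by poly(A) tail length in nt (horizontal) for the leading transcript of 8 member genes, reads of the 3 samples of a cell type pooled (blue P/D, orange RS). In the upper row, Syce1, Syce3, Stag3 and Psmc3ip, and for Sycp1, the RS curve lies to the right of the P/D curve, while for Rec8 the curves run together up to about the upper quartile and for Sycp3 and Cntd1 the RS curve lies to the left over most of the range.

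The relative use of isoforms was tested for the 4 member genes that had at least 2 transcripts past the count filter, Stag3, Psmc3ip, Sycp3 and Brme1. None was called (edgeR's diffSpliceDGE with Simes' method, adjusted p = 0.448, 0.886, 1.0 and 1.0), whereas 11.5% of 1054 genes were. For Stag3 the leading transcript took 41.0%, 44.6% and 47.3% of the reads of the gene in P/D and 46.1%, 39.7% and 29.1% in RS. The retained-intron transcript ENSMUST00000161113 took 20.5%, 14.3% and 8.11% in P/D and 22.4%, 24.6% and 23.3% in RS. For Psmc3ip the retained-intron transcript took 8.39% to 16.8% of the reads in any sample.

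Calls in accumulation and in tail length combined in several ways among the 20 member transcripts tested for both. Of the 9 that were lower in RS, 4 had longer tails (Sycp1, Syce1, the leading Stag3 transcript and the Psmc3ip transcript with the retained intron) and 5 had no tail call (Sycp2, both Sycp3 transcripts, Hormad1 and Cntd1). Of the 4 that were higher, 3 had longer tails (Syce2, Syce3 and Smc1b) and Rec8 did not. Of the 7 with no call in accumulation, 6 had longer tails and Spo11 did not. Among all 5916 transcripts tested for both, 63.3% of those lower in RS, 36.6% of those higher and 71.2% of those with no call in accumulation had longer tails.

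**Figure D5:**
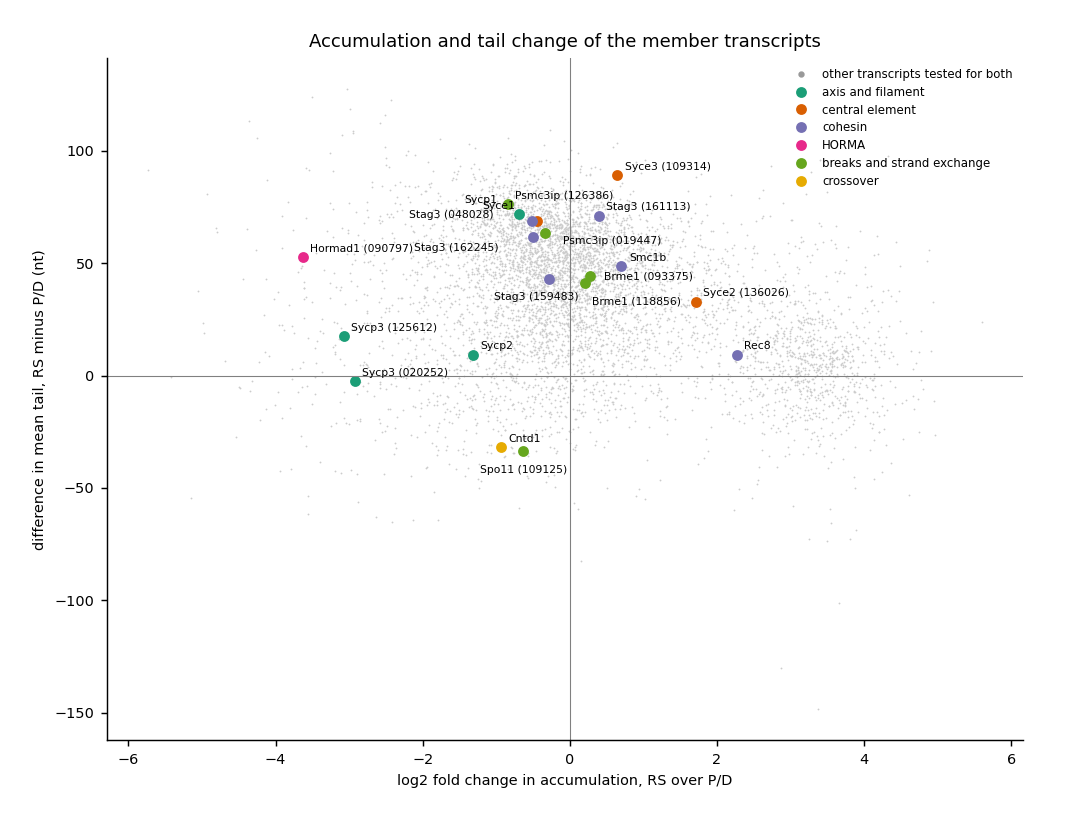
Log2 fold change in accumulation (horizontal) against the difference in mean tail in nt (vertical), RS against P/D, for the 20 member transcripts tested for both (coloured by role, with the last 6 digits of the transcript where a gene has several) and for the other transcripts tested for both (grey). Most members lie above 0, Rec8 lies far to the right near 0 nt, Sycp3 far to the left near 0 nt, and Cntd1 and Spo11 lie below 0.

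Other genes of meiotic chromosomes, excluding the members, were read in the same way. Some are listed under more than 1 name, and the list holds 99 symbols. Of these, 40 genes had a contig, and of 36 transcripts tested for accumulation RS had less of 21 and more of 3, beside 30.6% and 32.7% of all transcripts tested, and the median log2 fold change was -0.79. By group, 9 of 13 transcripts of general homologous recombination were lower and 0 higher, 5 of 6 of damage signalling were lower and 1 higher, 5 of 11 of the partners of synapsis, telomeres and axis were lower and 2 higher, and 2 of 6 of general cohesin were lower and 0 higher. The lowest were Fignl1, an ATPase of meiotic recombination (-3.70), Cdk2, a kinase found at telomeres and crossover sites (-3.59), and Atr, the kinase of unsynapsed chromatin (-2.02). Fignl1 and Cdk2 had 5 and 6 reads in the 3 RS samples together. Both passed the count filter only through P/D, where they were high, and so did others among the 21. Several transcripts of 1 gene are also counted apart, so the counts of calls in this list are a description. The transcripts that were higher were from Mael, a piRNA pathway protein (1.22), Rad17, which loads a checkpoint clamp (0.79), and Skp1a, a ubiquitin ligase subunit (0.73). Those of Mael and Skp1a were not the ones with most reads in their genes. The leading Mael transcript, ENSMUST00000038782, was not called (-0.11), and the leading Skp1a transcript, ENSMUST00000109072, was lower (-0.77, edgeR adjusted p = 0.00081). Of 42 transcripts of this list tested for tails, 18 were longer in RS and 0 shorter, beside 54.2% and 1.69% of all transcripts, with a median difference of 32.6 nt. The largest called gains were in Atr (80.6 nt), Mus81, a nuclease that resolves junctions (76.0 nt), and Mael (70.5 nt). Atr, like Syce1, Sycp1 and the leading Stag3 transcript, was thus lower in RS and had longer tails there. The same held for other transcripts of this list and for 63.3% of all transcripts lower in RS and tested for both.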

How the data were processed

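Per the labels and the study's methods, the authors basecalled the direct RNA reads with Guppy, demultiplexed them with Deeplexicon, and used minimap2 (2.20-r1061 in the submitters' processing notes) for alignment to the GENCODE transcriptome (GRCm38) and Nanopolish for the tails. The deposited count matrix holds unnormalized reads on each contig, and the second deposited table the tail of every read in nt, treated here as a score with no fixed range. Both tables gave equal read numbers.

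The members and gene lists were chosen with earlier results of these data known. The 20 members with a contig are described by their leading transcript and any other that passed a filter. Of the other meiotic genes, the 3 highest and 3 lowest called log2 fold changes and the 3 largest called tail gains are named. Annotated transcripts were tested with edgeR 4.0.16 (TMM, filterByExpr, glmQLFTest; diffSpliceDGE for isoforms) in R 4.3.3, and mean tails and class percentages with limma 3.58.1 where 2 or more replicates of a cell type had 10 or more reads and each cell type had a mean in 2 or more. In the cell type that met this minimum, a sample mean can rest on about 10 reads. In the other cell type it can rest on 1 read, as for Hormad1 ENSMUST00000090797 in RS replicate 2. P-values are Benjamini-Hochberg adjusted over all features, with a threshold of 0.05, and measure the spread between pools. The scripts were tested on simulated data. Alternatives were DESeq2 1.42.0, other normalization, filters, summaries, tail ranges and class bounds, genes in place of transcripts, a replicate block and leaving out each sample.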

Additional observations from a re-analysis of the deposited data

How the results depend on the processing

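The counts of member transcripts called depended mainly on the read minimum. Of the 4 higher and 9 lower transcripts in accumulation, 7 and 13 were called with no filter on counts, and 2 and 3 if every sample needed 10 counts, where fewer members could be tested. With DESeq2, 6 were higher and 5 lower. The leading Stag3 transcript also lost its call with RLE normalization, and Sycp1, Syce1 and that transcript lost theirs if every sample needed 10 counts. Leaving out 1 sample at a time gave 3 to 5 higher and 7 to 11 lower. Of the 13 longer tails, 4 were called if every sample needed 20 reads and 8 with genes in place of transcripts, both from fewer features, and 11 to 13 when 1 sample was left out. A shorter tail was called for Cntd1 with 10 reads required in both cell types and with weights, 1 transcript each, for the leading Sycp3 transcript with tails of 10 to 300 nt, and for 0 to 2 when 1 sample was left out, against 0. The methods' t-test called 11 longer tails at its threshold and 11 after Benjamini-Hochberg adjustment, and 0 shorter. The 9 higher shares of long tails became 9 to 10 when 1 sample was left out and 0 with the class of at least 210 nt. A lower share was called for 1 transcript with bounds of 120 to 180 nt, 1 with at least 120 nt and 1 with 10 reads in both cell types, and for 0 to 2 when 1 sample was left out. The isoform split was called for 0 genes under every alternative run.

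Signs turned for 7 transcripts, none of them called as reported or under that alternative, and the cause was not tested. In accumulation these were Brme1 ENSMUST00000093375 without P/D replicate 3 (-0.027, in a range of -0.027 to 0.58 over the samples left out) and Stag3 ENSMUST00000159483 without P/D replicate 2 (0.17, in a range of -0.51 to 0.17). In tails they were Rec8 (-3.72 nt) and Syce2 ENSMUST00000003922 (5.47 nt) with medians, Sycp3 ENSMUST00000020252 without P/D replicate 1 (1.55 nt), RS replicate 1 (4.35 nt) or RS replicate 2 (9.03 nt, in a range of -21.1 to 9.03 nt), Sycp3 ENSMUST00000125612 without RS replicate 3 (in a range of -13.6 to 58.1 nt), and Tex14 without RS replicate 1 (in a range of -25.8 to 0.21 nt).

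The P/D and RS samples carry the same replicate numbers, and the cell types came from the same mice, but no source used here ties a number to a pool of mice. Deviations of same-numbered samples from their group means correlated at 0.0260, 0.240 and 0.0704 over 1827 transcripts (log2 CPM), and P/D replicate 1 correlated best with RS replicate 3 (0.0947), and P/D replicate 3 with RS replicate 1 (0.120), so the pairing by number was not settled and the block was kept as an alternative. With the replicate number as a block, 4 member transcripts were higher and 11 lower, 12 tails were longer and 0 shorter, and 11 shares of long tails were higher and 0 lower. The calls that it changed in accumulation and mean tail are those of Spo11 and Psmc3ip ENSMUST00000019447, gained as lower, and the longer tail of Syce2 ENSMUST00000136026, lost. Depth limited which members could be tested, and 9 of the 33 contigs were tested for neither readout.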
